A study of Macaca fascicularis with 4 samples.

Results

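The muscle library of the cynomolgus monkey (Macaca fascicularis) was compared with the oWAT library and with the sWAT library of the same species. The abbreviations oWAT and sWAT are not explained in the labels, and WAT usually stands for white adipose tissue. These are 3 of the 4 libraries of the series, chosen by their tissue label, and the liver library was not used. The study read whole cDNA molecules on the PacBio Sequel II platform to catalogue the transcripts of each tissue. Each of the 3 groups (muscle, oWAT and sWAT) consisted of 1 library, made from RNA of 5 monkeys that had been pooled by tissue, and the labels give no treatment, age or sex and do not say which muscle was taken. There were no replicates, so no significance test was possible, and every interval below covers counting error only, not the spread between animals. A gene was read as higher or lower in muscle where muscle differed in the same direction from each fat library.

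The muscle library held 439872 counts assigned to genes, oWAT held 396797 and sWAT held 383896, and 13395 genes had a count in at least 1 of them. A gene was taken as measured when muscle, or both fat libraries, held at least 10 counts, which 6713 genes did. The 10 most abundant genes took 17.9% of the counts in muscle, 7.54% in oWAT and 14.3% in sWAT. Counts were scaled to the library total and expressed as CPM, the usual per-total unit. On this scale the median measured gene had a log2 ratio of -0.46 to oWAT and -0.31 to sWAT. With edgeR's trimmed mean of M values (TMM) as the scaling, these medians were 0.12 and 0.10, and with DESeq2 size factors 0.11 and 0.095. Calls of genes as lower in muscle therefore moved with the scaling, and calls that were lost with TMM are described beside the genes they concern. DESeq2 factors gave the same counts as TMM for most of the gene lists. The libraries carried the defining markers of their labels, thick filament genes in muscle and adipocyte genes in both fats.

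Skeletal muscle fibres contract by sliding thick filaments of myosin past thin filaments of actin, which are anchored at the Z-disc. Calcium released from the sarcoplasmic reticulum starts the movement, and creatine phosphate, glycogen and fatty acids supply its ATP. White adipocytes store triglyceride in a large lipid droplet, take up fatty acids through lipoprotein lipase and release them by lipolysis. Both tissues are held together by connective tissue in which fibroblasts lay down collagens, proteoglycans and basement membrane, and both contain vessels and macrophages.

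Of the 6713 measured genes, 426 (6.35%) were higher in muscle than in each fat library, with both lower bounds of the exact 95% intervals of the ratio above 2. A further 389 (5.79%) were lower in muscle than in each, with both upper bounds below 0.5, and 435 (6.48%) lay within 2-fold of each, with both intervals inside 0.5 to 2. The remaining 5463 met none of these conditions. At the same bounds of 2 and 0.5, 0 genes were higher than 1 fat library and lower than the other. At a bound of 1, where each interval need only exclude 1, 19 genes were. The muscle-high genes held 38.1% of muscle counts against 1.78% of oWAT and 1.62% of sWAT counts, and 122 of them had 0 counts in both fat libraries. The muscle-low genes held 3.60% of muscle counts against 18.2% of oWAT and 18.8% of sWAT counts, and 24 of them had 0 counts in muscle. The 2 directions also differed in the size of their bounds. The bound on the nearer fat library exceeded 10-fold for 119 of the muscle-high genes and for 8 of the muscle-low genes. In simulated data the calling found 100% of 8-fold and 52% of 3-fold higher genes, but 80% and 20% of lower ones. The counts of 119 and 8 genes are therefore not directly comparable. The simulation drew Poisson counts around a shared mean profile, with 50 well-counted genes changed per class. It held no shift of the median gene such as library-total scaling gave here, so it does not cover that influence on lower calls. With TMM scaling, 605 genes (9.01%) were higher, 163 (2.43%) lower and 564 (8.4%) within 2-fold, and with DESeq2 size factors the shares were 8.88%, 2.44% and 8.39%. With TMM the higher genes made up 78.8% of directional calls in place of 52.3%. The 15 higher genes with a symbol whose bound was farthest from 1 were MYBPC1, ACTA1, MYH1, CA3, NEB, MYBPC2, CKM, ENO3, MYH7, NRAP, ACTN2, ATP2A1, PYGM, CASQ1 and DES. The 15 lower ones were CHIT1, ADIPOQ, ITGAX, FABP4, ANGPTL4, ALDOC, LPL, MSR1, LIPA, CIDEC, PCK1, GABRE, MMP19, OXTR and GM2A. In bulk RNA, fewer cells of a type and less RNA per cell cannot be told apart.

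**Figure D1:**
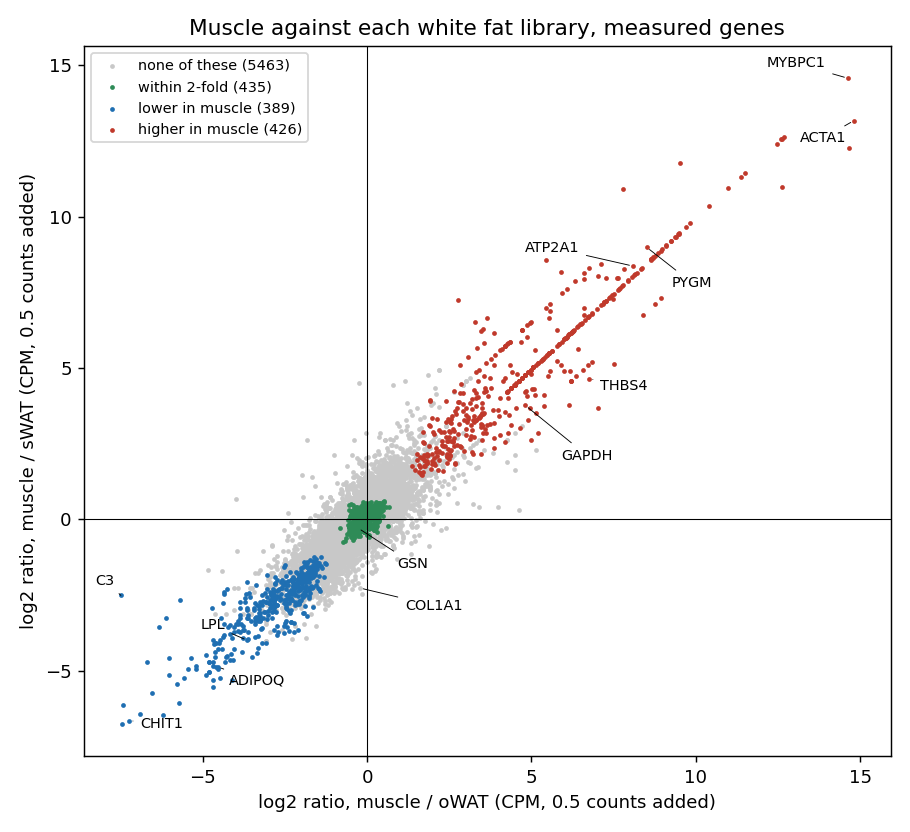
Each point is 1 measured gene, with the log2 ratio of muscle to oWAT on the horizontal axis and of muscle to sWAT on the vertical axis (CPM, 0.5 counts added), coloured by call. The 426 higher genes form a tail toward the upper right, in which the straight diagonal line is made of genes with 0 counts in both fat libraries, and the 389 lower genes reach less far toward the lower left.

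The thick filament genes separated muscle from both fat libraries most widely. Their summed level was 77466 CPM in muscle (95% Poisson interval 76645 to 78293), 2.52 in oWAT and 13.02 in sWAT. Of 17 listed genes 13 were measured, 12 of them higher and 0 lower in muscle. A gene without 10 counts in both fat libraries could be measured only through muscle, so such counts describe the list and are no support for a difference. MYBPC2, the fast-type myosin-binding protein C, had 3118 counts in muscle against 0 in oWAT and 0 in sWAT. It was at least 938-fold higher than oWAT and at least 907-fold higher than sWAT, taking the floor of 3 counts for each 0. The myosin heavy chain of slow fibres, MYH7, had 1467, 0 and 0 counts in the same order of libraries. Both genes were thus counted in muscle alone. Because the MYH genes are near-identical over long stretches and the assignment of shared reads is not described, the count of any single one is uncertain. MYH2 is among the 17 listed, but no counts of it were used here.

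On the thin filament, 12 of 14 measured genes were higher in muscle and 0 lower, with 16 listed. TPM1 and TPM2 encode tropomyosins, which cover the myosin-binding sites of actin at rest. TPM1 had 711 counts in muscle against 54 in oWAT and 33 in sWAT, a ratio of 11.9-fold (8.9998 to 15.97) to oWAT and 18.8-fold (13.3 to 27.5) to sWAT. TPM2 had 362, 9 and 6 counts and was 36.3-fold (18.9 to 79.99) higher than oWAT and 52.7-fold (23.96 to 144) higher than sWAT. Muscle stood far above both fat libraries for each of them, while the fat libraries held some counts of each. The third tropomyosin gene measured, TPM3, had 131, 234 and 163 counts and ratios of 0.505 (0.405 to 0.628) to oWAT and 0.701 (0.553 to 0.888) to sWAT. It met no call by library total and lay within 2-fold with TMM scaling. TPM3 makes both muscle and cytoskeletal tropomyosins, and counts per gene do not separate these.

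The Z-disc, titin and M-band list had 31 of 32 members measured, of which 27 were higher in muscle and 0 lower. The alpha-actinins cross-link actin at the Z-disc. ACTN2 had 2007 counts in muscle against 2 in oWAT and 0 in sWAT, 905-fold (250.3 to 7479.9) higher than oWAT and at least 584-fold higher than sWAT. ACTN3, the fast-fibre form, had 2914, 55 and 21 counts and was 47.8-fold (36.6 to 63.6) and 121-fold (79.1 to 196) higher, respectively. FHL1, a LIM-domain protein of muscle, had 3435 counts in muscle against 988 in oWAT and 1046 in sWAT. Its ratios were 3.14-fold (2.92 to 3.37) to oWAT and 2.87-fold (2.67 to 3.07) to sWAT, so that it was higher in muscle but abundant in all 3 libraries.

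Desmin, costamere and dystrophin-complex genes link the sarcomere to the cell membrane, and 10 of 16 measured members (22 listed) were higher in muscle, 2 were within 2-fold and 0 were lower. SYNM, an intermediate filament protein that pairs with desmin, had 421 counts in muscle against 16 in oWAT and 28 in sWAT, 23.7-fold (14.4 to 41.9) higher than oWAT and 13.1-fold (8.95 to 19.99) higher than sWAT. KLHL41 and KLHL40, which stabilise thin filament proteins, had 370, 0 and 0 and 304, 0 and 0 counts. They were at least 111-fold and at least 91.4-fold higher than oWAT. Both were thus counted in muscle alone, while other membrane linkers were shared with fat. ITGA7, the laminin-binding integrin of muscle, had 217, 187 and 285 counts, with ratios of 1.05 (0.857 to 1.28) to oWAT and 0.665 (0.554 to 0.796) to sWAT. ANXA6, a calcium-dependent membrane-binding protein, had 159, 176 and 154 counts, with ratios of 0.815 (0.653 to 1.02) and 0.901 (0.717 to 1.13). Both lay within 2-fold of each fat library.

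The list of calcium release and reuptake genes had 16 of 20 measured members (26 listed) higher in muscle, and 1 lower. The 16 include MSTN, myostatin, a secreted growth factor rather than a calcium-handling protein. SYPL2 belongs to the triad junction between the membrane tubules and the reticulum. It had 878 counts in muscle against 3 in oWAT and 2 in sWAT and was 264-fold (90.04 to 1283) higher than oWAT and 383-fold (106 to 3169) higher than sWAT. CASQ1, the calcium-binding protein stored in the reticulum of fast fibres, had 750, 0 and 0 counts and was at least 226-fold and at least 218-fold higher. The exception was ASPH, with 185 counts in muscle against 763 in oWAT and 774 in sWAT. Its muscle level was 0.219 (0.185 to 0.257) times oWAT and 0.209 (0.177 to 0.245) times sWAT, and it stayed lower with TMM scaling, at 0.328 and 0.277. The ASPH gene encodes an aspartyl hydroxylase found in many tissues as well as the reticulum protein junctin, and counts per gene do not separate the forms.

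Membrane excitation and neuromuscular junction genes were lowly counted, but 9 of 10 measured members (17 listed) were higher in muscle. SCN4A, the sodium channel of the muscle action potential, had 100 counts in muscle against 0 in oWAT and 2 in sWAT. It was at least 30.1-fold higher than oWAT and 43.6-fold (11.8 to 365) higher than sWAT. Among acetylcholine receptor subunits, CHRNB1 had 178, 1 and 1 counts and CHRNA1 had 51, 1 and 3. CHRNB1 was 161-fold (28.5 to 6377) higher than oWAT, and CHRNA1 was 46.01-fold (7.89 to 1852). The potassium channel KCNA7 had 42, 0 and 0 counts and was at least 12.6-fold higher than oWAT. Counts in the fat libraries did not exceed 3 for any of these 4 genes. Chosen after their values were seen, the gamma subunit of foetal receptors, CHRNG, had 17, 0 and 0 counts and the epsilon subunit of adult receptors, CHRNE, had 0, 2 and 1. A count of 0 in muscle allows up to 6.82 CPM.

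Myogenic transcription factors and satellite cell genes had 10 of 13 measured members higher in muscle, with 25 listed and 8 of those with counts too low to be measured. MYOD1, a regulator that commits cells to muscle, had 84 counts in muscle against 0 in oWAT and 0 in sWAT. It was at least 25.3-fold higher than oWAT and at least 24.4-fold higher than sWAT. SMYD1, a methyltransferase of striated muscle, had 368, 0 and 0 counts and was at least 111-fold higher than oWAT. MEF2C, which acts with the myogenic factors, had 150, 30 and 42 counts and was 4.51-fold (3.03 to 6.92) and 3.12-fold (2.201 to 4.5001) higher. SIX4, a homeobox regulator of myogenesis, had 41, 5 and 2 counts and was 7.397-fold (2.93 to 23.98) and 17.9-fold (4.65 to 153) higher. MYOD1 and SMYD1 had no counts in fat, while MEF2C and SIX4 were detected in both fat libraries.

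Ubiquitin ligase adaptors and chaperones of muscle, which turn over and refold sarcomere proteins, were higher in 20 of 24 measured members (28 listed), with 0 lower. ASB2 had 991 counts in muscle against 6 in oWAT and 2 in sWAT and was 149-fold (68.2 to 407) higher than oWAT. FBXO32, the ligase known as atrogin-1, had 267, 21 and 16 counts and was 11.5-fold (7.35 to 18.8) and 14.6-fold (8.804 to 25.9) higher. The small heat shock protein HSPB7 had 408, 1 and 1 counts and was 368-fold (65.7 to 14572) higher than oWAT. HSPB8 had 337, 26 and 40 counts and was 11.7-fold (7.84 to 18.2) and 7.35-fold (5.29 to 10.5) higher. Another small heat shock protein, CRYAB, named after its values were seen, had 8, 16 and 28 counts and ratios of 0.451 (0.167 to 1.12) and 0.249 (0.0982 to 0.562), so the family did not move as 1 group.

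Taking the 11 lists of contraction, its energy supply and its regulation, the median log2 ratio to the nearer fat library ranged from 0.30 for glycolysis to 9.03 for the thick filament, against -0.24 over all measured genes. The thick filament median was 6.44 with zeros at the floor of 3 counts. TMM scaling added 1 or 2 higher calls to most of these lists and removed none.

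**Figure D2:**
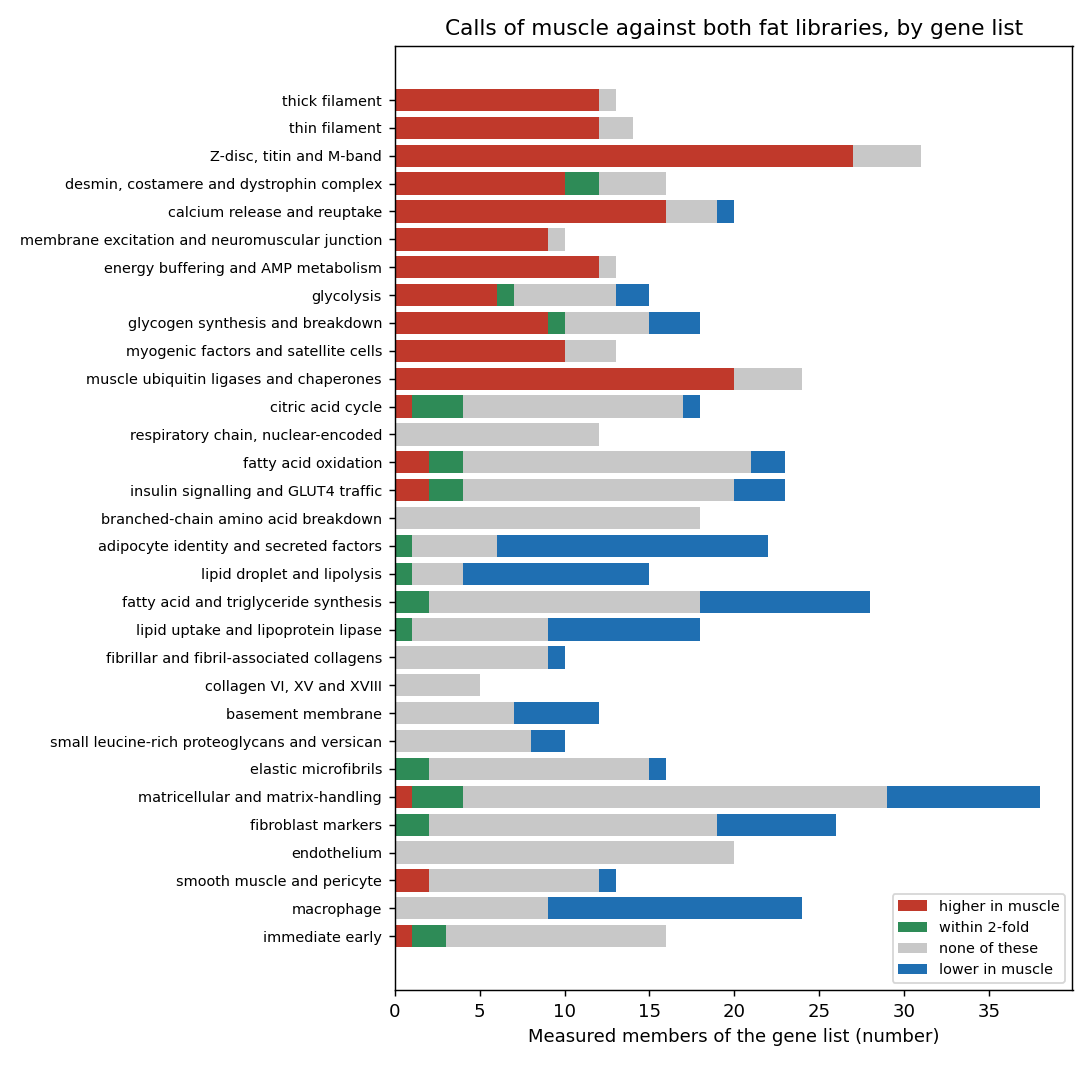
Bars show, for each gene list with at least 5 measured members, how many were higher in muscle, within 2-fold, in none of the calls or lower in muscle than both fat libraries, by library total. The contractile and calcium lists at the top are mostly higher, the adipocyte, lipid droplet and macrophage lists mostly lower, and the respiratory chain, branched-chain amino acid and endothelium lists have no call.

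Energy buffering and AMP metabolism genes were higher in muscle for 12 of 13 measured members (15 listed). CA3, a carbonic anhydrase of muscle, had 3634 counts in muscle against 0 in oWAT and 0 in sWAT. AMPD1, the AMP deaminase of muscle, had 338, 0 and 0 counts and was at least 102-fold higher than oWAT. ADSS1, the adenylosuccinate synthase that completes the purine nucleotide cycle with it, had 412, 2 and 2 counts and was 186-fold (51.1 to 1539.6) higher than oWAT and 179.8-fold (49.5 to 1489.5) higher than sWAT. Paralogues of these enzymes differed among themselves. AMPD3 had 52, 12 and 16 counts with ratios of 3.91 (2.06 to 8.05) and 2.84 (1.59 to 5.32), without a call by library total but higher with TMM and DESeq2 scaling, at 5.87 and 3.77 with TMM. AMPD2 had 16, 12 and 17 counts with ratios of 1.203 (0.534 to 2.79) and 0.821 (0.388 to 1.73), and ADSS2 had 10, 25 and 15 counts with ratios of 0.361 (0.155 to 0.778) and 0.582 (0.234 to 1.38). Of AMPK, the energy sensor, the catalytic subunit PRKAA2 had 43, 1 and 0 counts and the regulatory subunit PRKAG3 218, 0 and 0, both called higher. PRKAA1 had 15, 28 and 25 counts and PRKAG2 11, 38 and 11, neither called in any direction.

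Glycolysis was divided between paralogues, with 6 of 15 measured members higher, 2 lower and 1 within 2-fold, of 21 listed. GAPDH, often used as a reference gene, had 1014 counts in muscle against 32 in oWAT and 65 in sWAT and was 28.6-fold (20.1 to 42.02) higher than oWAT and 13.6-fold (10.6 to 17.8) higher than sWAT. Its many near-identical pseudogenes make the count uncertain. PGK1, the next enzyme, had 396, 66 and 77 counts and was 5.41-fold (4.16 to 7.14) and 4.49-fold (3.51 to 5.81) higher. Phosphofructokinase has 3 genes. PFKM, the muscle form, had 2532, 17 and 8 counts and was 134-fold (83.7 to 231) and 276-fold (139.97 to 641) higher. PFKP, the platelet form, had 8, 36 and 34 counts, 0.200 (0.0805 to 0.439) times oWAT and 0.205 (0.0821 to 0.452) times sWAT, a call that was lost with TMM scaling. The liver form PFKL had 58, 102 and 66 counts and was called in no direction.

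Enolase and aldolase were also divided. ENO3, the muscle enolase, had 1592 counts in muscle against 0 in oWAT and 0 in sWAT, while the ubiquitous ENO1 had 83, 183 and 109 counts and ratios of 0.409 (0.312 to 0.533) and 0.665 (0.493 to 0.892). ALDOC had 10, 190 and 240 counts and was 0.0475 (0.0224 to 0.0892) times oWAT and 0.0364 (0.0172 to 0.0680) times sWAT, a lower call that held with TMM and DESeq2 scaling. ALDOA, PKM, LDHA, TPI1, GPI and PGAM2 are among the 21 listed, but no counts of them were used here, so the values do not cover the whole pathway. PFKFB3, which makes the activator of phosphofructokinase, had 323, 236 and 204 counts, with ratios of 1.23 (1.04 to 1.47) and 1.38 (1.16 to 1.65), within 2-fold by library total but not with TMM.

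Glycogen metabolism had 9 of 18 measured members higher, 3 lower and 1 within 2-fold, of 20 listed. The 3 lower genes were PYGL, PYGB and GYG2. Glycogen phosphorylase breaks glycogen down, and its muscle gene PYGM had 2612 counts in muscle against 6 in oWAT and 4 in sWAT, 393-fold (180.2 to 1071) higher than oWAT. The liver gene PYGL had 8, 94 and 116 counts and was 0.0768 (0.0322 to 0.158) times oWAT and 0.0602 (0.0254 to 0.123) times sWAT. The brain gene PYGB had 82, 207 and 208 counts, 0.357 (0.273 to 0.464) times oWAT and 0.344 (0.263 to 0.446) times sWAT, and lost its call with TMM scaling. Glycogenin, which primes glycogen synthesis, was divided in the same way. GYG1 had 91, 14 and 18 counts and was 5.86-fold (3.32 to 11.1) and 4.41-fold (2.64 to 7.78) higher, and GYG2 had 6, 55 and 57 counts and was 0.0984 (0.0346 to 0.228) and 0.0919 (0.0324 to 0.213) times the fat levels. Of phosphorylase kinase, the alpha subunit PHKA1 had 493, 9 and 14 counts and the beta subunit PHKB 597, 48 and 48, and PHKB was 11.2-fold (8.35 to 15.4) higher than oWAT and 10.9-fold (8.08 to 14.9) higher than sWAT. Glycogen synthase GYS1 had 389, 86 and 83 counts, and UGP2, which makes its sugar donor, had 106, 76 and 73 and lay within 2-fold by library total only.

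Cytoskeletal and membrane paralogues were divided as well. FLNC, the filamin of striated muscle, had 248 counts in muscle against 43 in oWAT and 40 in sWAT, 5.203-fold (3.75 to 7.37) higher than oWAT, while FLNA had 139, 345 and 451 counts and was 0.363 (0.296 to 0.444) times oWAT and 0.269 (0.221 to 0.326) times sWAT. ACTN1, a non-muscle alpha-actinin, had 150, 381 and 371 counts and ratios of 0.355 (0.292 to 0.430) and 0.353 (0.290 to 0.428), opposite to ACTN2 and ACTN3. The lower calls of FLNA and ACTN1 were lost with TMM scaling, the higher calls were not. ATP2A2, the calcium pump of slow fibres, had 193, 21 and 24 counts and was 8.29-fold (5.27 to 13.7) and 7.02-fold (4.58 to 11.2) higher. ATP2B4, a plasma membrane calcium pump, had 25, 100 and 155 counts and was 0.226 (0.139 to 0.352) and 0.141 (0.0884 to 0.216) times the fat levels by library total, without a call under TMM.

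Among genes of caveolae, the membrane pits that are dense on adipocytes, calls by library total also went in both directions. CAV3, the caveolin of muscle, had too few counts to be measured. CAV1 had 219 counts in muscle against 818 in oWAT and 695 in sWAT, 0.242 (0.207 to 0.281) times oWAT and 0.275 (0.235 to 0.321) times sWAT, and stayed lower with TMM and DESeq2 scaling. CAVIN1, a coat protein of caveolae, had 282, 763 and 839 counts, 0.333 (0.290 to 0.383) and 0.293 (0.255 to 0.336) times the fat levels. CAV2 had 92, 237 and 331 counts and CAVIN2 43, 132 and 118. The lower calls of CAVIN1, CAV2 and CAVIN2 held by library total only. CAVIN4, the coat protein of muscle, had 115, 0 and 0 counts and was at least 34.6-fold higher than oWAT and at least 33.5-fold higher than sWAT. Over the whole list of 65 paralogues, 54 were measured, of which 17 were higher and 17 lower by library total. With TMM the figures were 18 and 8, and all 17 higher genes and 8 of the lower genes held under all 3 scalings. By library total, 19 paralogues had no call and ITGA7 was within 2-fold. Not every pair was divided: HK1 and HK2 had no call, and LPIN1 and LPIN2 were both lower.

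**Figure D3:**
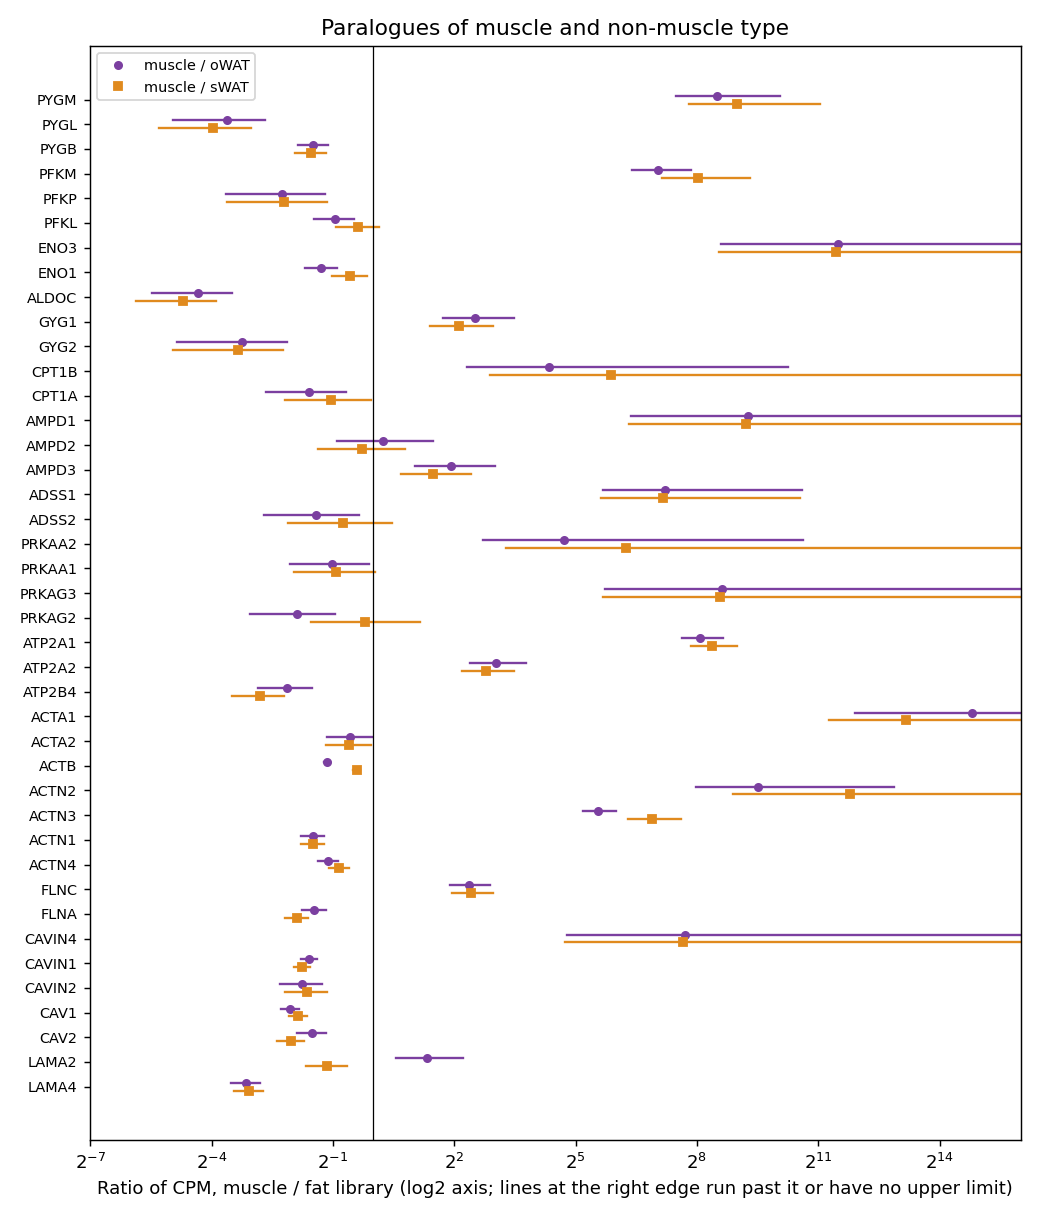
Ratios of muscle to oWAT (circles) and to sWAT (squares) are drawn for paralogous genes on a log2 axis, with exact 95% intervals as lines. Muscle-type genes such as PYGM, PFKM, ENO3, ACTN3 and CAVIN4 lie to the right of 1, and PYGL, PFKP, ALDOC, ACTN1 and CAVIN1 to the left. Of the 54 measured paralogues, 19 had no call by library total and 1 was within 2-fold. Where a fat library had 0 counts, the point includes the added 0.5 counts.

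In mitochondrial pathways, the shares of genes called by library total were near or below the background of 6.35% higher and 5.79% lower. Of 18 measured citric acid cycle genes (27 listed), 1 was higher, 1 lower and 3 within 2-fold, with a median log2 ratio to the nearer fat library of 0.67. IDH2, the mitochondrial NADP-linked isocitrate dehydrogenase, had 205 counts in muscle against 43 in oWAT and 35 in sWAT and was 4.301-fold (3.08 to 6.12) and 5.11-fold (3.56 to 7.54) higher. PC, pyruvate carboxylase, had 31, 110 and 105 counts and was 0.254 (0.165 to 0.382) and 0.258 (0.167 to 0.388) times the fat levels. OGDH, an enzyme of the cycle itself, had 260, 198 and 163 counts and was 1.18 (0.981 to 1.43) times oWAT. With TMM scaling 5 genes were higher, IDH2 and with it CS, DLD, SUCLA2 and PDHX, and 0 were lower. Nuclear-encoded respiratory chain genes had 0 of 12 called by library total and 4 higher with TMM (NDUFS1, UQCRC1, ATP5F1A and ATP5F1B). Of all measured genes, 9.01% were higher with TMM, a share that both lists exceeded. The respiratory chain list had a median log2 ratio to the nearer fat library of 0.62, against -0.24 over all measured genes. Its summed level was 2839 CPM in muscle, 1459 in oWAT and 1104 in sWAT. That list has 41 members, so the measured ones are a minority. Branched-chain amino acid breakdown had 0 of 18 measured members called under either scaling.

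Fatty acid oxidation had 2 of 23 measured members higher, 2 lower and 2 within 2-fold, of 29 listed. UCP3, an uncoupling protein of muscle mitochondria, had 220 counts in muscle against 0 in oWAT and 0 in sWAT. CPT1B, the muscle form of the enzyme that commits fatty acids to mitochondria, had 33, 1 and 0 counts and was 29.8-fold (4.98 to 1211) higher than oWAT. The liver form CPT1A had 13, 36 and 24 counts, with ratios of 0.326 (0.159 to 0.629) and 0.473 (0.221 to 0.966) and no call. ACSL1, which activates fatty acids, had 217, 637 and 587 counts and was 0.307 (0.262 to 0.359) and 0.323 (0.275 to 0.378) times the fat levels. ACACB, which makes the inhibitor of CPT1, had 40, 135 and 149 counts and was 0.267 (0.183 to 0.383) and 0.234 (0.161 to 0.334) times the fat levels. Both lower calls were lost with TMM. The beta-oxidation enzymes HADHA and ACADM had 154, 145 and 101 and 49, 50 and 44 counts and lay within 2-fold by library total. With 2 of 23 called in each direction, the shares are near the background of 6.35% higher and 5.79% lower.

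In insulin signalling and GLUT4 traffic, 2 of 23 measured members were higher, 3 lower and 2 within 2-fold, of 34 listed. SLC2A4, the insulin-responsive glucose transporter GLUT4, had 317 counts in muscle against 45 in oWAT and 43 in sWAT, 6.35-fold (4.64 to 8.89) higher than oWAT and 6.43-fold (4.67 to 9.07) higher than sWAT. TBC1D1, a Rab GTPase-activating protein that restrains GLUT4 vesicles, had 107, 16 and 9 counts and was 6.03-fold (3.55 to 10.9) and 10.4-fold (5.27 to 23.3) higher. Genes of the same traffic stood higher in fat. TRARG1, a regulator of GLUT4 traffic in adipocytes, had 29, 169 and 126 counts, 0.155 (0.101 to 0.231) and 0.201 (0.129 to 0.303) times the fat levels. PDE3B, through which insulin restrains lipolysis, had 4, 40 and 75 counts and ratios of 0.0902 (0.0234 to 0.250) and 0.0465 (0.0124 to 0.124). SORT1 and GSK3B lay within 2-fold by library total but not with TMM, with 188, 133 and 153 and 28, 26 and 24 counts. With TMM, 4 members were higher and 2 lower.

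Adipocyte identity genes were lower in muscle for 16 of 22 measured members (32 listed), with 0 higher and 1 within 2-fold, and for 12 with TMM scaling. Their median log2 ratio to the nearer fat library was -2.83. FABP4, the fatty acid carrier of adipocytes, had 13 counts in muscle against 292 in oWAT and 347 in sWAT, so that its fat levels were 24.9-fold (14.3 to 47.3) and 30.6-fold (17.7 to 58.02) higher. PLIN4, a coat protein of lipid droplets, had 123, 629 and 1159 counts and was 5.67-fold (4.67 to 6.93) higher in oWAT and 10.8-fold (8.96 to 13.1) higher in sWAT. CIDEC, which enlarges lipid droplets, had 0, 33 and 38 counts and was at least 12.2-fold higher in oWAT than the floor in muscle. Not all members separated in this way. LEP, CEBPD, EBF1, EBF2 and EBF3 had no call, and CFD, PPARG, SLC7A10 and AOC3 lost their lower call with TMM. The member within 2-fold was GPD1, which makes glycerol 3-phosphate for triglyceride. It had 667, 1074 and 720 counts and ratios of 0.560 (0.508 to 0.618) and 0.809 (0.727 to 0.900). GPD1 also serves the glycerophosphate shuttle of muscle, and it lay within 2-fold by both scalings.

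On the lipid droplet and in lipolysis, 11 of 15 measured members (32 listed) were lower in muscle, 0 were higher and 1 was within 2-fold. With TMM 7 were lower. LIPE, hormone-sensitive lipase, had 100 counts in muscle against 1313 in oWAT and 783 in sWAT and was 14.6-fold (11.9 to 18.02) and 8.97-fold (7.28 to 11.2) higher in the fat libraries. PLIN1, which guards the droplet of adipocytes, had 26, 216 and 165 counts and was 9.21-fold (6.12 to 14.4) and 7.27-fold (4.79 to 11.5) higher in fat. NPR1, the natriuretic peptide receptor through which lipolysis can be started, had 52, 137 and 206 counts and was 2.92-fold (2.11 to 4.101) and 4.54-fold (3.33 to 6.28) higher, a call that was lost with TMM. FITM2, which takes part in forming droplets, had 24, 21 and 21 counts and lay within 2-fold by library total. PLIN5, the droplet protein of oxidative tissues, had 10, 0 and 1 counts and no call. PLIN2 and G0S2 are among the 32 listed, but no counts of them were used here.

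Fatty acid and triglyceride synthesis genes were lower in muscle for 10 of 28 measured members (37 listed), 8 with TMM, with 0 higher. FASN, fatty acid synthase, had 130 counts in muscle against 552 in oWAT and 1218 in sWAT and was 4.71-fold (3.88 to 5.74) higher in oWAT and 10.7-fold (8.95 to 12.96) higher in sWAT. ELOVL5, an elongase of polyunsaturated fatty acids, had 128, 977 and 748 counts and was 8.46-fold (7.03 to 10.3) and 6.696-fold (5.54 to 8.14) higher in fat. GPAM, which starts glycerolipid synthesis, had 56, 342 and 567 counts and was 6.77-fold (5.09 to 9.15) and 11.6-fold (8.81 to 15.6) higher. PCK1, the enzyme of glyceroneogenesis, had 0, 77 and 30 counts and was at least 28.5-fold and at least 11.5-fold higher than the floor. The phosphatidate phosphatases of this pathway were both lower in muscle: LPIN1 had 71, 210 and 239 counts and LPIN2 3, 43 and 35. LPIN2 held its call under all 3 scalings and LPIN1 only by library total. SREBF1, a transcription factor of the pathway, lay within 2-fold by library total, with 71, 51 and 60 counts and ratios of 1.26 (0.864 to 1.84) and 1.03 (0.722 to 1.48).

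Lipid uptake genes were lower in muscle for 9 of 18 measured members (24 listed), 7 with TMM. LPL, lipoprotein lipase, had 252 counts in muscle against 2841 in oWAT and 3529 in sWAT and was 12.5-fold (10.98 to 14.3) and 16.05-fold (14.1 to 18.3) higher in fat. Its inhibitor ANGPTL4 had 0, 78 and 47 counts and was at least 28.8-fold and at least 17.95-fold higher. CD36, the fatty acid translocase, had 228, 1703 and 1979 counts and was 8.28-fold (7.21 to 9.55) and 9.95-fold (8.67 to 11.5) higher. Another member of the angiopoietin-like family, ANGPTL2, had 204, 206 and 191 counts and lay within 2-fold, with ratios of 0.893 (0.732 to 1.09) and 0.932 (0.761 to 1.14).

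Macrophage and lysosome genes were lower in muscle for 15 of 24 measured members (32 listed) by library total and for 11 with TMM, and 0 were higher. The median log2 ratio to the nearer fat library was -2.14. CHIT1, a chitinase made by activated macrophages, had 5 counts in muscle against 743 in oWAT and 484 in sWAT and was 165-fold (70.3 to 509) and 111-fold (47.2 to 343) higher in fat. It had the bound farthest from 1 of all muscle-low genes with a symbol. ITGAX, the integrin CD11c, had 3, 171 and 132 counts and was 63.2-fold (21.3 to 309) and 50.4-fold (16.9 to 248) higher. MSR1, a scavenger receptor, had 0, 54 and 37 counts and was at least 19.95-fold and at least 14.1-fold higher than the floor. Muscle was at or near 0 for each of these 3 genes.

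Lysosomal genes of the same list were present in muscle at a lower level. LIPA, lysosomal acid lipase, had 34 counts in muscle against 561 in oWAT and 420 in sWAT and was 18.3-fold (12.9 to 26.7) and 14.2-fold (9.97 to 20.7) higher in fat. GPNMB, a glycoprotein of lipid-laden macrophages, had 121, 807 and 617 counts and was 7.39-fold (6.101 to 9.03) and 5.84-fold (4.801 to 7.16) higher. The cathepsins CTSB and CTSD had 459, 1839 and 1335 and 202, 678 and 507 counts, and CTSB was 4.44-fold (4.01 to 4.93) and 3.33-fold (2.995 to 3.71) higher in fat. The lower call of CTSD held by library total only. GM2A, a lysosomal activator protein that is not on the list, had 14, 176 and 160 counts and was 13.9-fold (8.09 to 26.02) and 13.1-fold (7.58 to 24.5) higher. The macrophage receptor CSF1R had 109, 252 and 153 counts with ratios of 0.390 (0.309 to 0.490) and 0.622 (0.482 to 0.800), and CD163 had 20, 33 and 62 with ratios of 0.547 (0.297 to 0.981) and 0.282 (0.161 to 0.473). Neither of these defining receptors, named after their values were seen, was called, and their ratios lay nearer to 1 than those of CHIT1 and ITGAX. MSR1, C1QA, FCER1G, TREM2 and FOLR2 had 0 counts in muscle, but other than MSR1 none of them reached 10 counts in either fat library, at 0, 6 and 8 counts for C1QA and 0, 6 and 6 for TREM2, so these 4 were not measured. Some members, LPL among them, are also made by adipocytes, and the list was drawn up with earlier results of these libraries known.

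The stromal genes comprised 147 members of 7 lists: fibrillar collagens, collagens VI, XV and XVIII, basement membrane, small leucine-rich proteoglycans, elastic microfibrils, matricellular proteins and fibroblast markers. Of these, 117 were measured. Lying within 2-fold of both fat libraries were 7 genes, GSN, MMP2, CXCL12, LTBP4, MFGE8, PLOD1 and ADAMTS1. That is close to the 6.48% of all measured genes that did so by library total. A further 25 were lower in muscle, 1 was higher and 84 met no call. The median log2 ratio to the nearer fat library was -0.79 over the measured stromal genes, against -0.24 over all measured genes, and -0.26 against 0.063 with TMM. With TMM, 16 (13.7%) were within 2-fold, 10 (8.55%) lower and 2 (1.71%) higher, against 8.4%, 2.43% and 9.01% of all measured genes. By library total, the interval of the ratio lay below 1 for 79 of the 117 against oWAT and for 90 against sWAT. These are 67.5% and 76.9% of them, against 35.99% and 31.4% of all measured genes. Below 0.5 lay 31 and 53, or 26.5% and 45.3%, against 9.28% and 9.31% of all measured genes.

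GSN, an actin-severing protein with a secreted plasma form that marks fibroblasts, had the most counts of the shared genes. It had 4399 counts in muscle against 4800 in oWAT and 4701 in sWAT, or 10001, 12097 and 12246 CPM. The ratios were 0.827 (0.793 to 0.861) to oWAT and 0.817 (0.784 to 0.851) to sWAT. CXCL12, a chemokine of stromal cells, had 350, 498 and 498 counts and ratios of 0.634 (0.551 to 0.728) and 0.613 (0.533 to 0.705). Both stood below the fat libraries by library total. With TMM scaling GSN stood above them, at 1.24 and 1.08, and CXCL12 below, at 0.952 and 0.815. MFGE8, a secreted protein that bridges dying cells to phagocytes, had 92, 101 and 99 counts and ratios of 0.822 (0.613 to 1.101) and 0.811 (0.604 to 1.09). PLOD1, which hydroxylates lysines of collagen, had 76, 82 and 79 counts and ratios of 0.836 (0.604 to 1.16) and 0.840 (0.605 to 1.17). With TMM the ratios were 1.23 and 1.08 for MFGE8 and 1.26 and 1.12 for PLOD1, so their side of 1 depended on the scaling. All 4 genes lay within 2-fold under library-total, TMM and DESeq2 scaling.

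The other 3 shared genes held their call by library total but not with TMM. MMP2, a matrix metalloproteinase, had 1265 counts in muscle against 732 in oWAT and 1283 in sWAT. It was 1.56 (1.42 to 1.71) times oWAT and 0.861 (0.796 to 0.931) times sWAT, so that muscle lay between the fat libraries. LTBP4, which stores latent TGF-beta on elastic fibres, had 373, 473 and 229 counts and the opposite order, 0.711 (0.619 to 0.816) times oWAT and 1.42 (1.203 to 1.68) times sWAT. ADAMTS1, a secreted protease, had 72, 65 and 90 counts and ratios of 0.999 (0.705 to 1.42) and 0.698 (0.505 to 0.963). With TMM the ratios of MMP2 were 2.34 and 1.14, above both fat libraries, and those of LTBP4 were 1.07 and 1.89.

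THBS4 was the single stromal gene called higher by library total. It encodes a thrombospondin of tendon and muscle matrix and had 299 counts in muscle against 2 in oWAT and 10 in sWAT. Muscle was 135-fold (37.01 to 1119) higher than oWAT and 26.1-fold (13.99 to 54.98) higher than sWAT, and the call held under all 3 scalings.

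The 8 stromal genes with the most counts among those without a call, a choice made after the values were seen, were COL3A1, COL1A1, COL1A2, SPARC, FN1, FBLN2, COL6A1 and DCN. For COL1A1, COL1A2 and COL3A1, muscle lay nearer to oWAT than to sWAT. COL1A1 had 2857 counts in muscle against 3004 in oWAT and 12053 in sWAT, 0.858 (0.815 to 0.903) times oWAT and 0.207 (0.199 to 0.216) times sWAT. COL1A2, the partner chain of type I collagen, had 1729, 2035 and 6765 counts and ratios of 0.766 (0.718 to 0.818) and 0.223 (0.211 to 0.235). COL3A1, the chain of type III collagen, had 3959, 3051 and 11288 counts and ratios of 1.17 (1.12 to 1.23) and 0.306 (0.295 to 0.317). With TMM scaling all 3 stood above oWAT, at 1.29 for COL1A1, 1.15 for COL1A2 and 1.76 for COL3A1, and still below sWAT, COL1A1 at 0.275. The exception among the 10 measured fibrillar and fibril-associated collagens was COL5A3, a chain of type V collagen and the single one called lower, with 18, 70 and 113 counts and ratios of 0.232 (0.130 to 0.394) and 0.139 (0.0795 to 0.230), a call that was lost with TMM. Summed over the list, fibrillar collagens came to 20199 CPM in muscle, 21427 in oWAT and 81009 in sWAT.

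DCN, decorin, which binds collagen fibrils, showed no such gap between the fat libraries. It had 563 counts in muscle against 927 in oWAT and 841 in sWAT, with ratios of 0.548 (0.493 to 0.609) and 0.584 (0.524 to 0.651), and lay within 2-fold with TMM. FN1, fibronectin, had 629, 1238 and 2224 counts and was 0.458 (0.416 to 0.505) times oWAT and 0.247 (0.226 to 0.270) times sWAT. SPARC, a collagen-binding protein, had 1334, 2135 and 3258 counts with ratios of 0.564 (0.526 to 0.604) and 0.357 (0.335 to 0.381). FBLN2, a fibulin, had 851, 1016 and 1978 counts and COL6A1, a chain of collagen VI, 773, 1215 and 1413. Both were lowest in muscle by library total, but with TMM FBLN2 stood above oWAT, at 1.13.

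Basement membrane genes were lower in muscle in 5 of 12 measured members (20 listed), 4 of them with TMM. LAMA4, a laminin chain of vessels and adipocytes, had 72 counts in muscle against 578 in oWAT and 530 in sWAT, 8.899-fold (6.96 to 11.5) higher in oWAT and 8.43-fold (6.58 to 10.9) higher in sWAT. LAMB1, another laminin chain, had 30, 355 and 148 counts and was 13.1-fold (9.03 to 19.7) and 5.65-fold (3.798 to 8.67) higher in fat. NID2, a nidogen that links laminin to collagen IV, had 25, 114 and 177 counts and was 5.06-fold (3.26 to 8.14) and 8.11-fold (5.32 to 12.9) higher. COL4A2 had 101, 285 and 666 counts and was 3.13-fold (2.48 to 3.97) and 7.56-fold (6.12 to 9.41) higher, without a call under TMM. LAMA2, the laminin chain of muscle fibres, had 51, 18 and 99 counts. It was 2.56 (1.47 to 4.65) times oWAT and 0.450 (0.314 to 0.637) times sWAT, so that it differed from the fat libraries in opposite directions.

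Fibroblast markers were lower in muscle for 7 of 26 measured members (34 listed), and for 1 with TMM. Complement genes showed the widest gap. C7 had 87 counts in muscle against 1000 in oWAT and 320 in sWAT and was 12.7-fold (10.2 to 16.1) higher in oWAT and 4.21-fold (3.32 to 5.41) higher in sWAT, a call kept with TMM. C3 had 6, 1050 and 32 counts and was 194-fold (88.8 to 529.8) and 6.11-fold (2.52 to 17.9) higher, the sWAT interval being wide. For both, oWAT stood far above sWAT. Mesothelial markers, which belong to the lining of body cavities, also stood apart in oWAT, at 139 CPM in muscle, 4937 in oWAT and 182 in sWAT in sum, with ITLN1 at 0, 964 and 0 counts. Their part in the C3 and C7 values was not tested. VIM, the intermediate filament of mesenchymal cells, had 143, 397 and 439 counts and ratios of 0.325 (0.266 to 0.394) and 0.284 (0.234 to 0.344), and DPT, dermatopontin, had 90, 289 and 210 counts and ratios of 0.281 (0.219 to 0.357) and 0.374 (0.289 to 0.481). The lower calls of C3, VIM and DPT were lost with TMM.

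In the remaining matrix lists the lower calls were scattered. Matricellular and matrix-handling genes had 9 of 38 measured members lower, 3 with TMM. TIMP3, an inhibitor of metalloproteinases, had 117 counts in muscle against 396 in oWAT and 883 in sWAT and was 3.75-fold (3.05 to 4.65) and 8.65-fold (7.12 to 10.6) higher in fat under all 3 scalings. MMP19, a metalloproteinase, had 6, 146 and 99 counts and was 26.97-fold (12.1 to 74.7) and 18.9-fold (8.38 to 52.8) higher. CCDC80, a secreted matrix protein, had 623, 1493 and 1301 counts with ratios of 0.376 (0.342 to 0.414) and 0.418 (0.379 to 0.460), a call that was lost with TMM. EFEMP1, a fibulin, had 41, 241 and 216 counts and ECM2 21, 95 and 95, both lower under all 3 scalings. LUM, lumican, had 229, 506 and 544 counts and was lower by library total only.

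**Figure D4:**
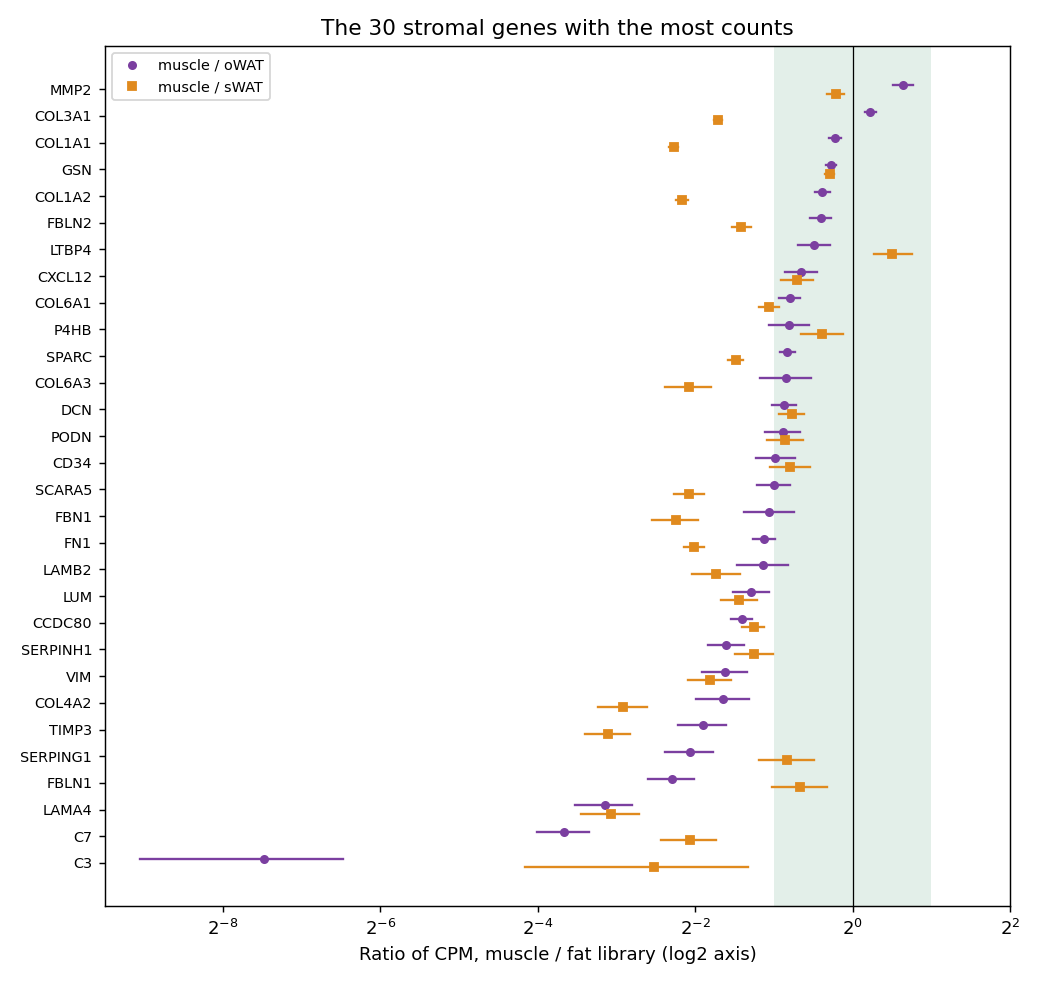
Ratios of muscle to oWAT (circles) and to sWAT (squares) are drawn on a log2 axis for the 30 stromal genes with the most counts, ordered by the oWAT ratio, with exact 95% intervals and the range 0.5 to 2 shaded. GSN, CXCL12, MMP2 and LTBP4 lie inside the band on both ratios, COL1A1, COL1A2 and COL3A1 do so against oWAT only, and C3 is farthest to the left.

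Markers of other cell types were examined in the same way. Endothelial genes had 0 of 20 measured members called by library total and 1 higher with TMM, and their summed level was 3712 CPM in muscle, 4630 in oWAT and 7400 in sWAT. Smooth muscle and pericyte genes had 2 of 13 measured members higher, DES and SYNPO2, which skeletal muscle also expresses, and 1 lower. The lower one was MYLK, the myosin light chain kinase of smooth muscle, with 29 counts in muscle against 104 in oWAT and 145 in sWAT and ratios of 0.252 (0.161 to 0.383) and 0.175 (0.113 to 0.261), by library total only. Lymphocyte markers summed to 68.2 CPM in muscle, 436 in oWAT and 179.7 in sWAT, with 2 of 20 measured and 0 called. Nerve and Schwann cell markers had 2 of 18 measured and 0 called, and mast cell, granulocyte and erythroid markers 0 of 19 measured. Hepatocyte markers had 1, 7 and 1 counts. Adipocyte markers summed to 3517 CPM in muscle against 21565 and 26234 in the fat libraries, and macrophage markers to 3460 against 23483 and 21613. These sums are not independent, because LPL is on both lists and had the highest summed CPM of the lower genes on each. The adipocyte sum in muscle includes GPD1, which muscle also uses. How much of each gene's difference moved with these cell types was not tested.

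**Figure D5:**
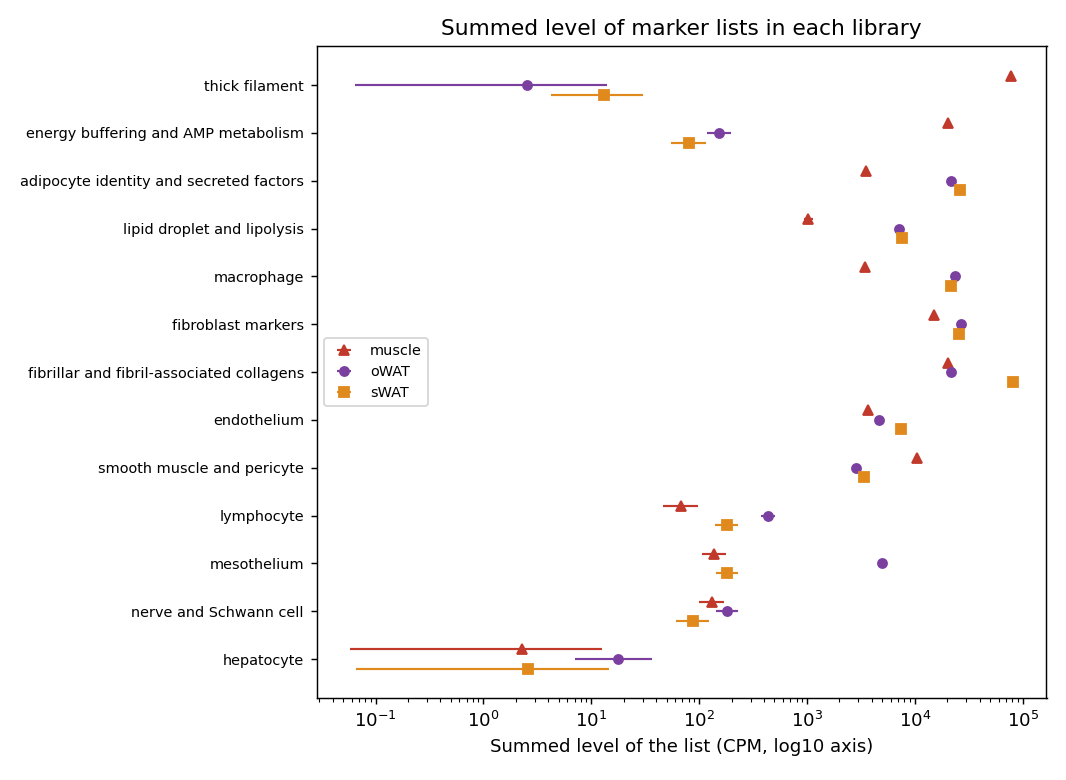
Summed levels of marker lists are shown for muscle (triangles), oWAT (circles) and sWAT (squares) on a log10 axis of CPM, with exact 95% Poisson intervals as lines. The thick filament list separates muscle from fat by more than any other list drawn, mesothelium separates oWAT from the others, and endothelium and fibroblast markers lie close together.

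Of the genes that respond at once to stimulation, 1 of 16 measured members (28 listed) was higher in muscle by library total. This share is close to the 6.35% of all measured genes called higher. NR4A1, an orphan nuclear receptor, had 122 counts in muscle against 11 in oWAT and 5 in sWAT and was 10.005-fold (5.399 to 20.6) higher than oWAT and 21.3-fold (8.88 to 66.8) higher than sWAT. MCL1 and DNAJB1 had 87, 75 and 57 and 67, 84 and 48 counts and lay within 2-fold by library total. Among positional regulators 4 of 34 were measured and 2 were higher in muscle. TBX15, a T-box factor of limb muscle and of some fat depots, had 359, 2 and 24 counts and was 162-fold (44.5 to 1342) higher than oWAT but 13.1-fold (8.63 to 20.6) higher than sWAT. HOXC10, a homeobox gene of the hind body, had 14, 0 and 0 counts and was at least 4.21-fold higher than oWAT and at least 4.07-fold higher than sWAT.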

How the data were processed

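The deposited files hold whole-number gene counts that the authors made from PacBio reads, not normalized, and list only genes with counts. A gene not listed was taken as 0. Reads were aligned with minimap2 2.24, per the submitters' processing notes. No source used here gives the genome build, annotation, counting rule, strand use or handling of shared reads, and no coordinates or sequences are reported. File names use other fat abbreviations than the labels, and the labels were followed. The entry naming no gene was left out of totals: 14.3% of the muscle, 19.5% of the oWAT and 16.6% of the sWAT file. Symbols were used as given, and 6203 of 6713 measured ones are in the RefSeq table of T2T-MFA8v1.1.

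Counts were scaled to CPM. Ratios have exact 95% Clopper-Pearson intervals from the binomial share of the counts of both libraries (SciPy 1.17.1, Python 3.11.15), without molecular identifiers. A fold against 0 uses a floor of 3 counts (6.82 CPM in muscle, 7.56 in oWAT, 7.81 in sWAT) and reads "at least". Such a fold leaves out the counting error of the library with counts, so the lower bound of the exact interval can lie below it. Log2 ratios add 0.5 counts. edgeR 4.0.16 and DESeq2 1.42.0 (R 4.3.3) gave scaling factors only. TMM normalization factors, which multiply the library totals, were 0.794, 1.19 and 1.06 for muscle, oWAT and sWAT. The comparison, the 38 gene lists and the members were chosen with earlier results of these data known. Named genes were the 15 per direction with the bound farthest from 1, up to 4 per list and call by summed CPM, members against a list's direction, stromal genes within 2-fold and measured paralogues. Some genes that the rule names are counted in their lists but not reported here by name. The calling was tested on simulated data. Other alternatives were other minimum counts, intervals, bounds, totals, thinning, and each fat library alone.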

Additional observations from a re-analysis of the deposited data

How the results depend on the processing

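No paired analysis was possible because each tissue has 1 library. The count of genes lower in muscle, 389 by library total, was 163 with TMM and 164 with DESeq2 scaling, 251 with 99% intervals, 782 at a bound of 1.5, 80 at a bound of 4, 750 against oWAT alone, 669 against sWAT alone and 1702 at a bound of 1, which was added after the data were seen. All 163 and 164 were among the 389. The count within 2-fold, 435, was 226 with 99% intervals, 36 at 1.5, 3096 at 4, 875 against oWAT alone and 759 against sWAT alone. Of the 564 genes within 2-fold with TMM, 161 were among the 435. The higher count, 426, was 250 at a bound of 4 and 879 at a bound of 1, and all 426 were among the 605 with TMM. Genes between the fat libraries numbered 0, 2 at 1.5 (ANGPTL7 and TGM2) and 19 at 1. Of 168 named genes, 25 lost a direction with TMM and 1 gained one, and no called direction reversed under any setting. Others entered or left the range within 2-fold. Depth left 6682 of 13395 genes with counts unmeasured. With 1 library per tissue, every value describes these pools only.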

Other observations

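Among called genes with a symbol, 261 of the higher and 279 of the lower were on no gene list. The 10 of each with the bound farthest from 1 were picked after their values were seen. The higher ones were MSS51, TMEM38A, PADI2, TRIM7, MLIP, APOBEC2, HJV, MYO18B, STYXL2 and ABRA. TMEM38A, a potassium channel of the reticulum, had 801 counts in muscle against 7 in oWAT and 5 in sWAT and was 103-fold (49.9 to 258) higher than oWAT. HJV, hemojuvelin, a regulator of iron balance, had 153, 0 and 0 counts and was at least 46.01-fold higher than oWAT. PADI2, which converts protein arginine to citrulline, had 797, 7 and 6 counts and was 103-fold (49.6 to 256) higher than oWAT. The lower ones were GABRE, OXTR, GM2A, MMD, APOL6, TNFRSF21, AOX1, TAFA4, MGST1 and TF. OXTR, the oxytocin receptor, had 3 counts in muscle against 69 in oWAT and 116 in sWAT and was 25.5-fold (8.37 to 127) higher in oWAT. GABRE, a subunit of the GABA-A receptor, had 6, 105 and 143 counts and was 19.4-fold (8.62 to 54.1) higher in oWAT. TF, transferrin, had 16, 151 and 308 counts and was 10.5-fold (6.24 to 18.8) and 22.1-fold (13.4 to 39.1) higher in the fat libraries.

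Some enzyme pairs outside the list of paralogues, also picked after their values were seen, were divided between the tissues. IDH1, the cytosolic isocitrate dehydrogenase, had 36, 239 and 179 counts and was lower in muscle at 0.136 (0.0929 to 0.193) and 0.176 (0.119 to 0.252), opposite to IDH2. The translation elongation factor EEF1A1 had 138, 384 and 365 counts and ratios of 0.324 (0.265 to 0.395) and 0.330 (0.269 to 0.402), while its muscle and nerve form EEF1A2 had 41, 0 and 0 counts and was at least 12.3-fold higher than oWAT. The lower call of EEF1A1 was lost with TMM, and its many near-identical pseudogenes make its count uncertain. The cytosolic and mitochondrial aspartate aminotransferases were both higher in muscle: GOT1 had 147, 11 and 11 counts and was 12.1-fold (6.54 to 24.7) higher than oWAT, and GOT2 had 427, 46 and 40 and was 8.37-fold (6.17 to 11.6) higher. The reference gene ACTB had 2007, 3991 and 2330 counts with ratios of 0.454 (0.430 to 0.479) to oWAT and 0.752 (0.708 to 0.798) to sWAT. With TMM these were 0.681 and 0.999, within 2-fold of both.

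A gene known only by the identifier ENSMFAG00000042245 had 3497 counts in muscle against 0 in oWAT and 0 in sWAT. The files pair it with no symbol.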
